A study of Mus musculus with 3 samples.

Results

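The transcripts described here are precursors of PIWI-interacting RNAs (piRNAs) that lie mostly between coding genes in the mouse genome. They are the 218 of 50081 transcript models of the series whose code begins with PI, and they are called PI models. Of these, 217 are named by chromosome, cytogenetic band and serial number, and taking the name without its final number gives 100 band-named loci. The remaining PI model, pi-Hist1h1a.2, is a single exon of 747 nt with the same exon as the RefSeq model of Hist1h1a, a linker histone gene. It makes a further locus beside the 100, and with it 53 PI loci lie on the minus and 48 on the plus strand. The members were picked here by their codes and names, and no measured value entered that step. What the authors based the codes on was not given in the sources used here.

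The models come from 1 table for the whole series. The series held 1 CAGE library of wild-type C57BL/6J testes at 10.5 days post partum, 1 CAGE library of adult wild-type C57BL/6J testes and 1 PAS-Seq library of adult wild-type C57BL/6J testes, all from total RNA, with no treatment named. CAGE marks where capped transcripts begin, and PAS-Seq marks where polyadenylated ones stop. The table holds no value per library, so library depth is unknown, the ages could not be compared and no marker of testis cell types could be checked. The values below are positions and lengths of models, they have no replicate error, and differences between kinds of locus were described and not tested.

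As background, piRNAs guide PIWI proteins in germ cells, where they silence transposons and other RNAs. In mouse testis, long single-stranded precursors are made by RNA polymerase II, capped and polyadenylated like messenger RNAs, and then cut into piRNAs. At the pachytene stage of meiosis most of these precursors come from intergenic loci with few transposons, and the transcription factor A-MYB (Mybl1) drives many of them. Several such loci are known to be transcribed in both directions from 1 shared promoter region.

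Sequence at the starts can be shown for part of the loci. A RefSeq model of the table began within 50 nt of a PI start on the same strand at 14 PI loci, at 14 genes. For 10 of these genes RefSeq lists a promoter window, 250 bases before to 50 after the start on GRCm38.p6, with the same accession and the same genomic length of the gene as in the table, which is in mm9. These 10 genes are long noncoding RNAs by RefSeq biotype. The windows were searched on both strands for TAACNG and CAACNG, which together are the core that MYB proteins bind, counting overlapping matches separately. At least 1 match was present in 9 of the 10 windows, against 49.7% of all 32851 RefSeq promoter windows of the same length. A match is a string of letters and not a shown binding site, and 10 windows were not tested against the rest. At 1700001L05Rik all matches lay after the start. None of the 10 loci faces another PI locus head to head, and all but 1-qE2.3-2 have multi-exon models. The windows therefore do not stand for PI loci that face each other or have 1 exon. The windows shown are those of 1-qC1.3-637, whose start region is shared with a coding gene, of 4 multi-exon loci whose windows held 2 to 4 matches, and of the locus whose window held none. They are credited to RefSeq, run 5′ to 3′ along the transcript and have the matches in capitals.
4930558J18Rik (locus 1-qC1.3-637, chr1:57377495-57377619, minus strand, from the start of the facing gene onwards): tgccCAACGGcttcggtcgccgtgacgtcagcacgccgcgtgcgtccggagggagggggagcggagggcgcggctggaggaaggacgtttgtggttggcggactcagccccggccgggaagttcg
4930444F02Rik (locus 10-qA3-2592, chr10:18831881-18832180, minus strand): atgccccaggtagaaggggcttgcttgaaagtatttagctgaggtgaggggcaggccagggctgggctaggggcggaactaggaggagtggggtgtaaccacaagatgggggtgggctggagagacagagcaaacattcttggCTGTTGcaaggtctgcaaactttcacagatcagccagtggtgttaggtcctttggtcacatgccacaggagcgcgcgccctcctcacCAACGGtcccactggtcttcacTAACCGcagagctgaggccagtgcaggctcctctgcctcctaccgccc
1700008K24Rik (locus 17-qC-935, chr17:49113484-49113783, minus strand): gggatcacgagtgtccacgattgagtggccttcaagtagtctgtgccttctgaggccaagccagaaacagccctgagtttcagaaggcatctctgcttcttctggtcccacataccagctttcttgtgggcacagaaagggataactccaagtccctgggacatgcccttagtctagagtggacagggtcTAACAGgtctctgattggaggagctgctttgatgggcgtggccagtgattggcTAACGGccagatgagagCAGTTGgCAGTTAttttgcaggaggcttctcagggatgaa
4933404O12Rik (locus 5-qG2-950, chr5:136918896-136919195, plus strand): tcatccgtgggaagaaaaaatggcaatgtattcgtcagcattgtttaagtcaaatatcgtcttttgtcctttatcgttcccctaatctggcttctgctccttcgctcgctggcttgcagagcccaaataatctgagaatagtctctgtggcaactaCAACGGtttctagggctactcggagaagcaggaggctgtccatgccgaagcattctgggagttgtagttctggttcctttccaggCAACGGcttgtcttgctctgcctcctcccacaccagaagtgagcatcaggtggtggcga
Gm2762 (locus 13-qB1-1517, chr13:53393439-53393738, plus strand): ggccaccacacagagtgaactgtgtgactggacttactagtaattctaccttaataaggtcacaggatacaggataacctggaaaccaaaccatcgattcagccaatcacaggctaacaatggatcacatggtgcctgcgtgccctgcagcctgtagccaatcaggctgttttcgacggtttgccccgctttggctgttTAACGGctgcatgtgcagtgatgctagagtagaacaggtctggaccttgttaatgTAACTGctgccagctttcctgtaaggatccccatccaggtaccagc
2900060B14Rik (locus 1-qE2.3-2, chr1:118459216-118459515, minus strand): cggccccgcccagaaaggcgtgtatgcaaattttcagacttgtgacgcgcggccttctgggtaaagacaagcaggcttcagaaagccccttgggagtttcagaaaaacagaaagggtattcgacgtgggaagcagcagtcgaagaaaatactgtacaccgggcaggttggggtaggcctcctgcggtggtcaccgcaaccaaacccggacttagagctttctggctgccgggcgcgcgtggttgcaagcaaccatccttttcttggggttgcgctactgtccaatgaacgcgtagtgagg

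The windows ranged widely in base composition. CpG dinucleotides numbered 1 to 42 per window (median 15), against a median of 7 over all RefSeq windows, and the GC content was 39.7% at 1700042G15Rik and 75.3% at 4930558J18Rik, against a median of 52.7%. The TATA box letters TATAAA were found in 1 of the 10 windows, that of 1700042G15Rik, and in 13.6% of all windows. The start of 4930558J18Rik lies 76 bp from that of the coding gene 1700066M21Rik both in the table and in GRCm38.p6, so the first sequence above holds the whole stretch between these starts.

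PI loci were long, and their length sat in very few exons. The longest model of a locus had a median spliced length of 14448 nt (range 122 to 69605, middle 50% of loci at 6700 to 32152), against 7440 nt over 114 gene-named piRNA loci, 2684 nt over 13175 NM-coded RefSeq genes, 1189 nt over 647 NR-coded RefSeq genes and 1486.5 nt over 11024 loci assembled as CUFF models without a gene symbol. Models over 10000 nt were found at 60 PI loci (59.4%, exact 95% interval 49.2 to 69.1), 24 gene-named piRNA loci (21.1%, 14.0 to 29.7) and 181 NM-coded RefSeq genes (1.37%, 1.18 to 1.59). Genomic spans differed less, with a median for the longest model of 22848 bp at PI loci, 35718.5 bp at gene-named loci and 21538 bp at NM-coded RefSeq genes. The exons of all PI loci together covered 2056 kb. These intervals cover counting error only.

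The 10 loci with the longest spliced models included spliced and unspliced precursors. The longest was 3-qA2-617 on chromosome 3 (20301594 to 20405121, mm9, as are the coordinates of models below), with 69605 nt in 8 exons and the largest span of any PI locus, 103528 bp. It was followed by 2-qE1-35981 (66885 nt), 7-qD1-16444 (56596 nt), 10-qB4-6488 (53208 nt), 4-qC5-17839 (51472 nt), 14-qA3-19970 (48098 nt), 10-qC1-875 (45905 nt), 6-qF3-28913 (45460 nt), 10-qC1-1527 (42831 nt) and 9-qA5.3-24188 (42650 nt). In 6 of these the longest model was 1 exon, and in the others it had 2 or 8. By span the order was another: after 3-qA2-617 came 13-qA5-464 (93934 bp), 13-qA5-156 (80971 bp), 6-qF3-1063 (68108 bp), 2-qE1-35981 (68003 bp), 13-qB1-1517 (60871 bp), 7-qD1-16444 (56596 bp), 10-qB4-6488 (54639 bp), 10-qC1-875 (53839 bp) and 3-qA3-2052 (52653 bp). At 13-qB1-1517, 6-qF3-1063 and 3-qA3-2052 the spliced product was short, at most 5363, 9875 and 6737 nt.

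At the other end of the range, the shortest PI model was the 1 model of 1-qE2.3-2 (122 nt, 1 exon), inside the span of Clasp1, a microtubule plus-end protein gene, on the opposite strand. The next were single models of 11-qE1-3997 (347 nt), 4-qD3-2082 (514 nt), 1-qD-2017 (544 nt) and 15-qD1-4001 (556 nt), loci that each have a longer model as well. Besides 1-qE2.3-2, 2 loci had no model over 1000 nt: 17-qC-935, with 918 nt, and pi-Hist1h1a.

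Single-exon and spliced precursors were almost equally common among PI loci. All models had 1 exon at 48 loci (47.5%, 37.5 to 57.7), 41 loci had multi-exon models alone and 12 had both. The share of loci with single-exon models alone was 1.75% for gene-named piRNA loci and 3.93% for NM-coded RefSeq genes. It was 25.2% for NR-coded and 26.9% for XX-coded RefSeq genes, and 75.8% for CUFF loci without a symbol. Single-exon loci were the longer ones in spliced length, at a median of 24872 nt (quartiles 9497.75 and 35264.5) over 48 loci, against 9846 nt (5681 and 19176) over the 53 loci with a multi-exon model. The median genomic spans were close, at 24872 bp for single-exon loci and 24699 bp for those with a multi-exon model. At 5 loci a spliced and an unspliced model shared the same start and end: 4-qB3-639, 4-qB3-277, 6-qD1-2831, 7-qD1-16444 and 11-qB1.3-590. Both arms of 1 head-to-head pair, 4-qB3-639 and 4-qB3-277, are among them.

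**Figure D1:**
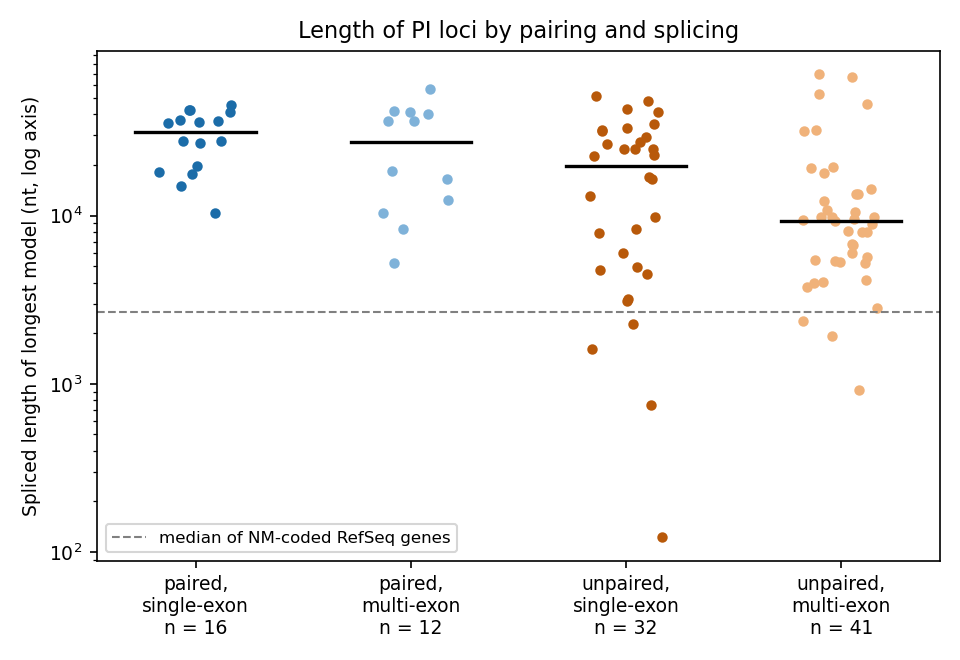
Spliced length in nt (log axis) of the longest model of each PI locus, by whether the locus faces another band-named locus head to head and whether it has a multi-exon model. Points are loci, black bars are medians, and the dashed line is the median of NM-coded RefSeq genes. The 16 paired single-exon loci lie between 10400 and 45460 nt, all above the dashed line at 2684 nt.

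Spliced PI models put most of their sequence in 1 exon. The 127 multi-exon models had a median of 3 exons (range 2 to 12), a first exon of 215 nt and a last exon of 3374 nt. Their longest exon took a median of 87.9% of the spliced length (quartiles 71.6 and 94.0) and was the last exon in 98 models, the first in 18 and an internal one in 11. When the longest model per locus is taken, the last exon held a median of 84.1% of the spliced length over 47 PI loci, against 77.1% over 110 gene-named piRNA loci and 44.4% over 12645 NM-coded RefSeq genes. The first exon was the longest in models of 11 loci, among them 2-qE1-35981 (57635 nt), 7-qD1-16444 (51800 nt), 10-qB4-6488 (50298 nt), 10-qC1-875 (42309 nt) and 7-qD2-24830 (40087 nt). An internal exon was longest in models of 3-qA2-617 (65899 nt, 98.3% of its shorter model), 2-qE5-4 (9837 nt), 6-qF3-3040 (6983 nt) and 10-qA3-2592 (5042 nt) and 3 other loci.

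The models with the most exons came from few loci. Both models of 13-qA5-156 had 12 exons, 1 of 2-qE5-4 had 10, and 2 of 13-qA5-464 and 1 of 3-qA2-617 had 9. The multi-exon models held 211 distinct introns with a median of 1481 bp (quartiles 559.5 and 4834). The median over introns of the longest models was 1407 bp at PI loci, 1763.5 bp at gene-named piRNA loci and 1345 bp at NM-coded RefSeq genes. There were 26 introns over 10000 bp, the longest in 6-qF3-1063 (49194 bp), 13-qB1-1517 (34412 bp), 13-qA5-464 (32739 bp), 3-qA3-2052 (29944 bp) and 13-qA3.1-355 (25390 bp). The shortest were in 3-qA3-2052 (21 bp) and 5-qF-14224 (58 bp), followed by introns of 82 bp in 13-qA5-464, 13-qA5-703 and 17-qA3.3-352. Splice-site letters were not read, because no mm9 genome was used here. Whether such short gaps between exons are introns was therefore not tested. The gap of 58 bp alone makes 5-qF-14224 a multi-exon locus. Of the 211 introns, 30 at 19 loci lay wholly within an exon of another model of the same locus.

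PI loci varied at their ends far more than at their starts. Of the 70 loci with at least 2 models, 63 began every model at the same base. Positions within 50 nt being counted as 1, 58 loci had more than 1 end and 7 had more than 1 start, and over all PI loci there were 108 starts and 181 ends. Of the 58 loci, 39 had 2 ends, 17 had 3, 1 had 4 and 1 had 5. The start differed by most at 13-qA5-464 (56376 bp) and 5-qG3-23659 (6249 bp), then at 17-qC-59 (1502 bp), 6-qC3-6258 (1345 bp), 11-qE1-9443 (937 bp), 10-qA3-143 (448 bp) and 12-qE-7089 (96 bp). How the authors set starts and ends was not given in the sources used here, and its part in this difference was not tested.

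Most shorter ends lay within the last, or only, exon of the longer transcript. Of 80 ends short of the furthest end of their locus, 62 lay in the last exon of a model that reached the furthest end, 7 in an earlier exon and 10 in an intron. The remaining 1, at 13-qA5-464, lay outside the model that reached furthest, which begins at the downstream start of that locus. Where a model that reached furthest had 1 exon, that exon counted as the last, so no other class was possible. Such ends were not counted apart. The 80 ends fell short by a median of 5526 bp (quartiles 2238 and 14183, range 313 to 57317). At the median locus with more than 1 end, the nearest end lay at 65.0% of the distance to the furthest. The largest spreads of ends were at 6-qF3-1063 (57317 bp), 13-qA5-464 (56491 bp), 13-qB1-1517 (56356 bp), 10-qC1-875 (44975 bp) and 13-qA5-208 (30390 bp). The end nearest to the start fell in an earlier exon of the furthest model at 10-qC1-875, in an intron at 6-qF3-1063 and 13-qB1-1517, in the last exon at 13-qA5-208 and outside that model at 13-qA5-464.

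**Figure D2:**
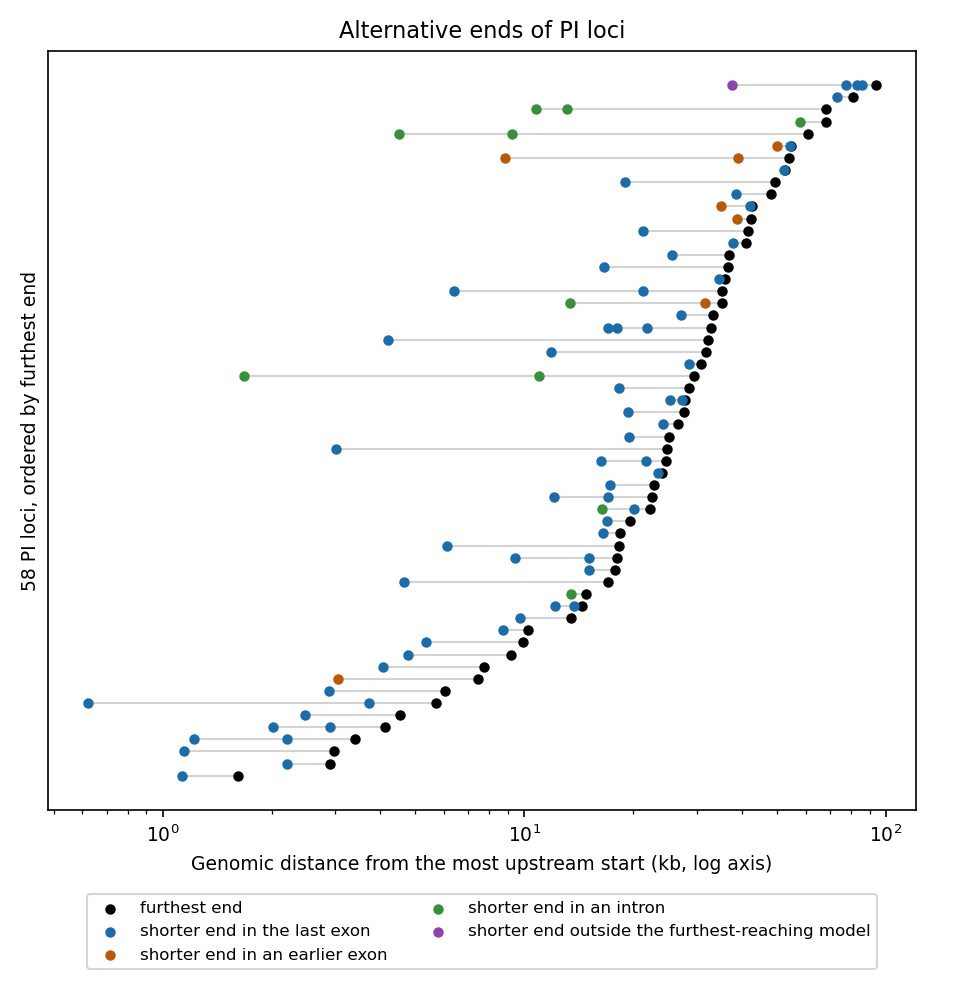
Genomic distance in kb (log axis) from the most upstream start to each end, for the 58 PI loci with more than 1 end. Black points are the furthest ends and coloured points the shorter ones, by where they lie relative to the model that reaches furthest. The 62 shorter ends in the last exon, which is the only exon at single-exon loci, are spread over loci of every length. Those in introns reach as far as 57317 bp short of the furthest end.

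Among the 10 loci with at least 4 models, 1 had more than 1 start, and 17-qC-935 alone had a single end. 6-qC3-100 had 7 models with 1 start and 3 ends, and 4 to 7 exons. 7-qF3-3125 had 5 models that shared 1 start and had 4 ends, and 10-qA3-2592 and 6-qF3-1063 had 5 models with 3 ends each. 13-qA5-464 had 5 models with 2 starts and 5 ends. 17-qC-935 also had 5 models but 1 start and 1 end, and its models of 657 to 918 nt differed by splicing alone. The others with at least 4 models were 4-qB3-3994, 4-qD3-2082, 11-qB1.3-590 and 13-qB1-1517.

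PI loci in head-to-head pairs were longer in median than the others, although 7 of the 10 longest loci, 3-qA2-617 and 2-qE1-35981 among them, were unpaired. With starts at most 500 bp apart and pointing away from each other, 28 loci formed 14 pairs, with starts 39 to 181 bp apart (median 124.5). The paired loci had a median longest model of 31615.5 nt (quartiles 17499 and 40468.8) and the 73 unpaired loci of 9846 nt (5334 and 24947). Models over 10000 nt were found at 26 of 28 paired and 34 of 73 unpaired loci. Paired loci made up 39.2% of the summed exon sequence of PI loci. Single-exon models alone were found at 16 of 28 paired loci (57.1%) and 32 of 73 unpaired loci (43.8%), and more than 1 end at 15 of 28 and 43 of 73.

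The arms of a pair were seldom equal. The pairs spanned 18.7 to 92.2 kb (median 64.8), and the longer arm had 1.11 to 7.96 times the spliced length of the shorter (median 1.59). The longer arm was on the minus strand in 8 pairs and on the plus strand in 6. The most unequal pair was 7-qD1-654, with 5208 nt, and 7-qD1-19431, with 41468 nt, whose starts lie 39 bp apart. The next were 7-qD2-24830 with 7-qD2-11976 (41152 and 12445 nt) and 6-qF3-8009 with 6-qF3-28913 (18441 and 45460 nt). The most equal were 7-qF3-3125 with 7-qF3-246 (16620 and 14950 nt), 12-qE-23911 with 12-qE-7089 (40241 and 35818 nt) and 17-qA3.3-27363 with 17-qA3.3-26735 (36753 and 41944 nt). The widest pair was 7-qD1-9417 with 7-qD1-16444, and the narrowest 4-qB3-639 with 4-qB3-277, at 10339 and 8336 nt.

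**Figure D3:**
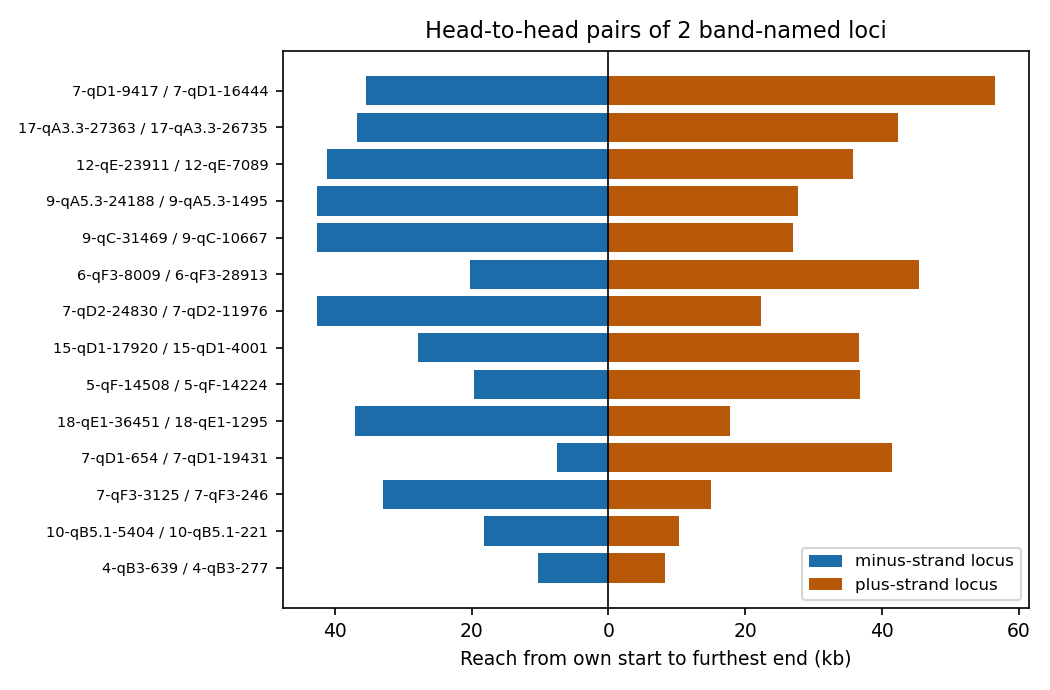
Genomic reach in kb of the minus-strand locus (left) and the plus-strand locus (right) of the 14 head-to-head pairs, each measured from its own start to its furthest end and ordered by the width of the pair. The pair 7-qD1-654 with 7-qD1-19431 has the most unequal arms, with 7448 bp and 41468 bp.

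The other pairs were 9-qA5.3-24188 with 9-qA5.3-1495, 9-qC-31469 with 9-qC-10667, 15-qD1-17920 with 15-qD1-4001, 5-qF-14508 with 5-qF-14224, 18-qE1-36451 with 18-qE1-1295 and 10-qB5.1-5404 with 10-qB5.1-221. Splicing differed between the arms of several pairs. At 7-qF3-3125 with 7-qF3-246, the minus arm had up to 4 exons and 4 ends and the plus arm 1 exon and 1 end. At 15-qD1-17920 with 15-qD1-4001, the minus arm had 1 exon and 3 ends and the plus arm up to 3 exons and 2 ends. Among the 73 unpaired loci, 12 faced a model of another kind, 1 of them, 15-qD3-14639, the gene-named piRNA locus pi-1700016M24Rik at 141 bp. No head-to-head partner of any kind was found for 61 PI loci.

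A few PI loci faced a coding gene instead. NM-coded RefSeq genes began within 500 bp head to head of 7 PI loci. D9Ertd402e, listed by RefSeq as Tcaim, lay 78 bp from the start of 9-qF4-150, 1700066M21Rik 100 bp from 1-qC1.3-637, and 4930519G04Rik 127 bp from 5-qF-4633. Bclaf1, which encodes a nuclear protein of transcription and RNA processing, lay 157 bp from 10-qA3-143, and Fkbp4, an Hsp90 co-chaperone of steroid receptors, 169 bp from 6-qF3-1063. Ccdc41, listed as Cep83 and encoding a centriolar appendage protein, lay 348 bp from 10-qC2-545, and Ddx50, a nucleolar RNA helicase, 495 bp from 10-qB4-6488. At 10-qA3-143 another start overlapped Bclaf1, with 136 shared exon bases on opposite strands, and 11-qE1-252 overlapped the first exon region of the centrosomal gene Ccdc46 (Cep112) by 160 bp in the same way. The PI loci that faced these 7 genes had longest models of 2255 nt at 10-qA3-143 to 53208 nt at 10-qB4-6488.

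PI loci were unevenly spread over the autosomes. They lay on 18 of 19 autosomes, with 11 on chromosome 10, 10 on chromosome 7 and 9 on chromosome 13, and none on chromosome 16, X or Y. Chromosome 19 had 1, and chromosomes 3, 12 and 18 had 2 each. Measured up to the last modelled base, the autosomes held 4.09 PI loci per 100 Mb, chromosome 10 held 8.47, chromosome 13 held 7.48 and chromosome 7 held 6.56. Gene-named piRNA loci had another order, with 13 on chromosome 11, 12 on chromosome 1 and 5 on chromosome 16. Chromosome 10 held 10.9% of PI loci and 4.71% of NM-coded RefSeq genes, and chromosome 11 held 3.96% of PI loci and 7.88% of these genes. The spread over chromosomes was not tested.

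**Figure D4:**
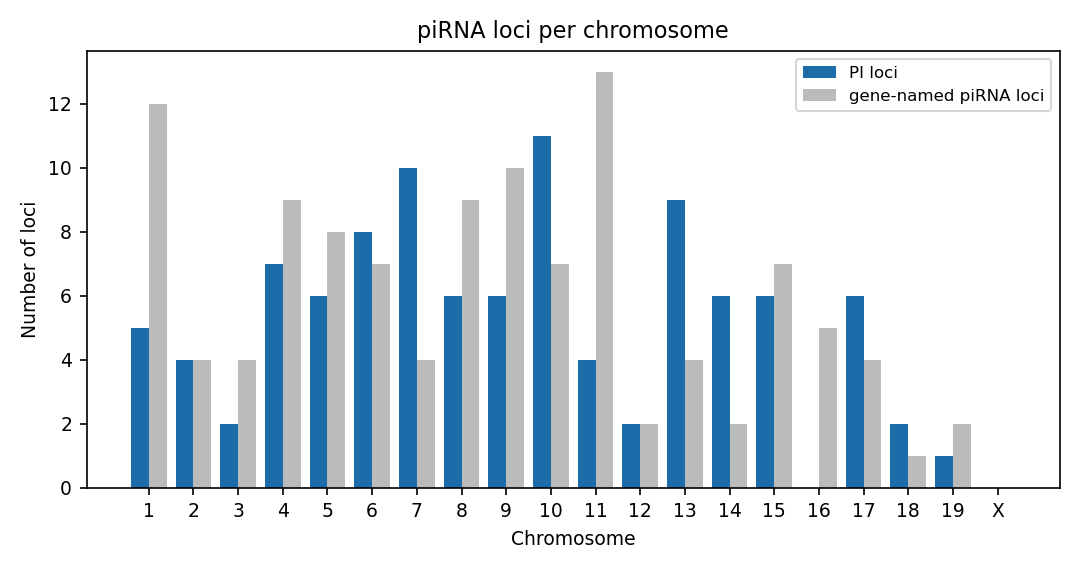
Number of PI loci (blue, left bar) and gene-named piRNA loci (grey, right bar) on each autosome and X. Both arms of head-to-head pairs are counted. PI loci peak at 11 on chromosome 10 and are absent from chromosome 16, which has 5 gene-named loci, and neither kind is found on X.

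Most PI loci that lay close to another one were members of a pair. Within 500 kb of another PI locus were 47 loci, in 21 groups, of which 18 held 2 loci, and 54 loci were in no group. With each head-to-head pair counted as 1 locus, 20 of 87 were that close to another. The distance to the nearest PI locus had a median of 1133 kb (quartiles 0.168 and 4513 kb) over 100 loci, since 19-qC2-1361 is alone on chromosome 19. The 100 band names fell in 53 bands, of which 28 held at least 2 loci, with 5 loci each in 10-qC1 and 13-qA5. A gene-named piRNA locus lay within 500 kb of 13 PI loci, with a median distance of 4647 kb over all PI loci. The 13 include pi-Hist1h1a, which overlaps the gene-named locus of the same name.

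The 3 larger groups differed in form. On chromosome 13, 13-qA5-156, 13-qA5-208, 13-qA5-464 and 13-qA5-703 lay within 1119 kb (49910091 to 51029517), and each of the 4 had multi-exon models. Fbxw17, an F-box protein gene, lies between the first 2, on the plus strand, and the other 2, on the minus strand. On chromosome 6, 6-qF3-8009, 6-qF3-28913, 6-qF3-3040 and 6-qF3-1063 lay within 731 kb (127726094 to 128456925), the first 2 as a head-to-head pair. On chromosome 14, 14-qA3-19970, 14-qA3-2286 and 14-qA3-284 lay within 348 kb (24901216 to 25249047) and all 3 had single-exon models alone. Of these groups, that on chromosome 14 held 97.3 kb of exon sequence, that on chromosome 13 held 97.1 kb and that on chromosome 6 held 89.2 kb.

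PI loci overlapped NM-coded genes about as seldom as CUFF loci without a symbol did. The span of 84 loci overlapped no NM-coded model, and 17 overlapped 1 gene each, 12 on the opposite strand and 5 on the same strand. Exon bases were shared by 15 of the 17. The other 2, 1-qE2.3-2 in Clasp1 and 11-qE1-3997 in Prkca, a protein kinase C gene, lay within the span of the gene on the opposite strand without exon overlap. The share that overlapped an NM-coded model was 16.8% for PI loci, against 19.4% for CUFF loci without a symbol. Gene-named piRNA loci carry another code, so the share among PI loci may also reflect that sorting, which was not tested. RefSeq models of any code shared exon bases on the same strand with 23 PI loci. The 84 include pi-Hist1h1a, because the RefSeq model of Hist1h1a that has its exon is coded XX. NM-coded models therefore do not hold every coding gene.

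On the opposite strand, long stretches of gene were shared at 13-qA3.1-355 with Aldh5a1, a mitochondrial dehydrogenase of GABA breakdown (4576 shared exon bases), 10-qB4-6488 with Stox1 (2770), 12-qE-7089 with the potassium channel gene Kcnk10 (1764) and 9-qF4-150 with Gm9524 (1656). Shorter ones were at 7-qD2-24830 with Fam174b (623), 6-qF3-1063 with the protease inhibitor gene Pzp (596), 10-qC1-12816 with the cytokine gene Mif (554) and 15-qE1-1119 with Cbx7, a Polycomb protein gene (325). Bclaf1 and Ccdc46 complete this set, with 136 and 86 bases.

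On the same strand, 3 PI loci ran over a coding gene from a far upstream start. A CUFF model with the gene's symbol began 37 nt from the start of 9-qC-10667 and bore the name C2cd4b, whereas the RefSeq start of C2cd4b lay 25492 bp downstream of that PI start. Likewise, a CUFF model named Aym1 began 5 nt from the start of 5-qF-14224, and the RefSeq start of Aym1 lay 17156 bp downstream. CUFF models named H1fx, a linker histone gene listed as H1f10, began 42 nt from the start of 6-qD1-2831, and the RefSeq start lay 12685 bp downstream. In each case the RefSeq exons shared 528 to 1326 bases with the PI locus. 9-qC-10667 and 5-qF-14224 are plus arms of head-to-head pairs, so their partners 9-qC-31469 and 5-qF-14508 also had an NM-coded neighbour within 500 bp through these CUFF models. The other 2 same-strand genes were met by the 3′ part of 2-qE1-35981, at the sulfotransferase gene Chst1 (254 RefSeq exon bases), and by the first bases of 15-qE1-8387, at the RefSeq 3′ end of Elfn2 (526). With CUFF models of the gene's symbol included, the shared exon bases were 1154 at Chst1 and 18632 at Elfn2.

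The 84 loci without overlap lay a median of 35.1 kb from the nearest NM-coded model (quartiles 11.2 and 102 kb), against 40.3 kb for CUFF loci without a symbol. The nearest gene faced the locus head to head at 29 loci (median 26.1 kb), lay upstream on the same strand at 20 (58.0 kb), downstream on the same strand at 19 (26.1 kb) and tail to tail at 16 (29.8 kb). NM-coded models lay within 10 kb of 19 loci and over 100 kb from 22. The interval between the NM-coded models on each side had a median of 318 kb and was widest around 6-qC3-6258, 3944 kb between Ctnna2 and AW146020, and narrowest around 1-qD-2017, 12.7 kb between Ilkap and Hes6. The most distant nearest neighbours were 1700015G11Rik, 872 kb from 7-qB5-6255, Dnajc19, 745 kb from 3-qA3-2052, Fto, 521 kb from 8-qC5-8200, and Nr2f2, 442 and 386 kb from 7-qD1-9417 and 7-qD1-16444.

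**Figure D5:**
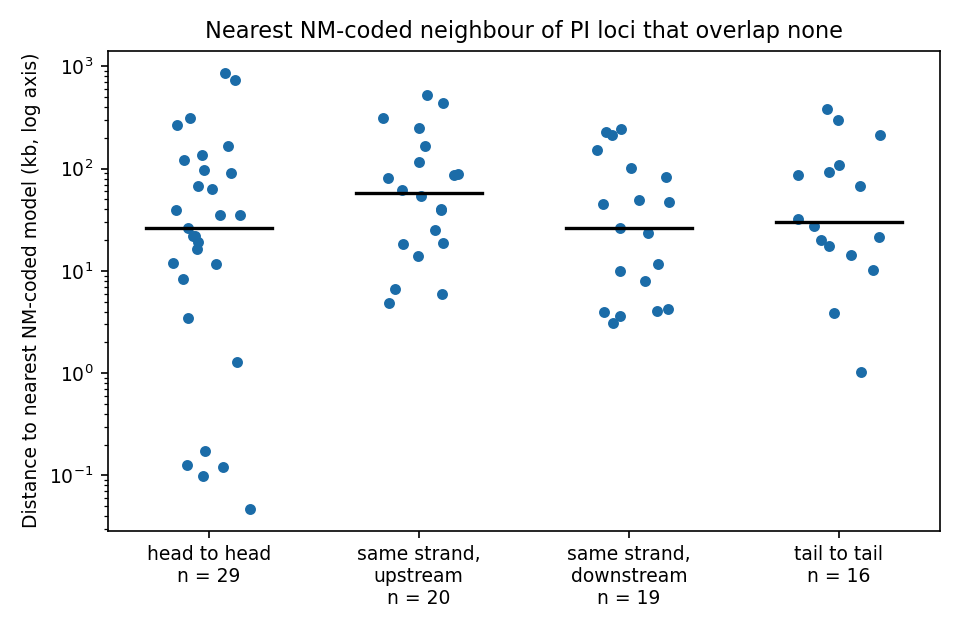
Distance in kb (log axis) from each of the 84 PI loci without overlap to the nearest NM-coded model, by the relative position and strand of that neighbour. Points are loci and black bars medians. Distances under 1 kb occur among the head-to-head neighbours, where the nearest is 0.047 kb away. That neighbour of 5-qF-14508 is the CUFF model named Aym1, which begins 5 nt from the start of the partner arm 5-qF-14224. Likewise, the neighbour of 9-qC-31469 at 0.121 kb is the CUFF model named C2cd4b, 37 nt from the start of 9-qC-10667.

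Close neighbours beyond the start regions were of varied function. Downstream on the same strand and within 10 kb of a locus lay Sqle, an enzyme of cholesterol synthesis (3.08 kb from 15-qD1-4001), Arfgap3, a Golgi regulator (3.60 kb from 15-qE1-3710), Gnal, a G protein subunit gene (3.96 kb from 18-qE1-1295), 4930571K23Rik (4.04 kb from 7-qF3-246), the phosphatase gene Ilkap (4.27 kb from 1-qD-2017), 2610524H06Rik (5.05 kb from 5-qF-4633), the zinc-finger gene Zfp354b (7.96 kb from 11-qB1.3-590) and Gpld1 (8.12 kb from 13-qA3.1-355). Upstream on the same strand lay Ide, which encodes insulin-degrading enzyme (4.87 kb from 19-qC2-1361), Rab7, a GTPase of late endosomes (5.12 kb from 6-qD1-2831), Hes6 (5.45 kb from 1-qD-2017), Rabl5 (5.90 kb from 5-qG2-950), the zinc-finger gene Zfp192 (6.70 kb from 13-qA3.1-213) and Pacsin2 (8.33 kb from 15-qE1-3710). Tail to tail lay Cdan1 (1.02 kb from 2-qE5-4), Apoh (3.18 kb from 11-qE1-252) and Dlg5 (3.86 kb from 14-qA3-19970). Head to head but over 500 bp away lay Hist1h3a, a core histone gene (1.28 kb from pi-Hist1h1a), Gstt2 (2.64 kb from 10-qC1-12816), Stambp (3.44 kb from 6-qC3-100) and Rragc (8.24 kb from 4-qD2.2-349). No NM-coded gene was the nearest neighbour of 3 or more loci, but 2 genes flanked 4 loci each: Fbxw17, those of the group on chromosome 13, and Nr2f2, a nuclear receptor gene, the arms of 2 head-to-head pairs on chromosome 7. Dazl, which encodes a germ-cell RNA-binding protein, lay 31.9 kb tail to tail from 17-qC-59 and is named here after its value was seen.

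None of the piRNA pathway genes and germline transcription factors that were looked up lay beside a PI locus. Of 21 genes of the piRNA pathway and 11 germline transcription factors, all found in the table, none was the flanking NM-coded gene of a PI locus and none lay within 1000 kb of one. Taf7l, a transcription factor of the list, is on X, which has no PI locus. The nearest of the pathway was Exd1, at 1145 kb from 2-qE5-4, and the nearest of the transcription factors was Zbtb16, at 5411 kb from 9-qA5.3-24188. Mybl1 lay 47715 kb from 1-qC1.3-637. The share of all NM-coded genes within 1000 kb of a PI locus was not computed. These counts therefore do not set the listed genes apart from other genes.

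PI loci were covered by other models of the table, which seldom shared their ends. Models of other kinds on the same strand covered 89.8% of the exon bases of PI loci and at least 90% of 71 loci, and each PI locus had some such overlap. The least covered were 14-qA3-284 (3.81%) and 6-qF3-1063 (9.79%), which were chosen after their values were seen. A start of another model on the same strand lay within 50 nt of a PI start at 45 loci, at 14 of them a RefSeq start and at 34 a CUFF start. Of the 181 ends, 30 (16.6%) had an end of another model within 50 nt, and 72 loci had no such end. Models on the opposite strand covered 1.19% of the exon bases, at 31 loci.

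Where a RefSeq gene shared the start, the longest PI model of the locus was in several cases longer than the RefSeq model. At 1-qC1.3-637 the longest PI model had 12274 nt, against 2052 nt for the RefSeq model of 4930558J18Rik. The longest PI model had 9846 nt at 9-qA1-178, against 1382 nt for 4930433N12Rik, and 5334 nt at 5-qG2-2301, against 1705 nt for D130017N08Rik. The shortest PI model was near the RefSeq length at 1-qC1.3-637 (2023 nt) and 9-qA1-178 (1253 nt), but not at 5-qG2-2301 (3868 nt). The lengths were close at 5-qG2-950, with 3973 nt against 3970 nt for 4933404O12Rik, and at 15-qE1-3710, with 5985 nt against 6003 nt for 1700001L05Rik. At 1-qE2.3-2 the PI model was the shorter one, with 122 nt against 597 nt for 2900060B14Rik. A PI model with exactly the exons of a RefSeq model was found at 13-qA3.1-213, with Zfp389, a transcribed pseudogene by RefSeq biotype, and at pi-Hist1h1a. Reads of such zinc-finger and histone genes can also belong to near-identical copies. Whether this applies at these 2 loci was not tested.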

How the data were processed

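The deposited data were 1 headerless table of 12 columns in the BED layout, with 1 transcript model per line. Its values, as the authors deposited them, are genomic positions with the number and sizes of exons, and hold no counts or expression levels. The tool TopHat2 2.0.4 and, as genome build, mm9 are named per the submitters' processing notes. Assembly, naming, coding and filtering of the models were not given in the sources used here. Positions are given counted from 1.

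Python 3.11.15, numpy 2.4.6, pandas 2.3.3 and scipy 1.17.1 were used. PI models were those whose code in column 9 begins with PI_P, and a locus was a name without its final number. Nothing was filtered out. Starts or ends within 50 nt counted as 1, head-to-head starts pointed apart and lay 1 to 500 bp from each other, and gaps up to 500 kb joined loci. A neighbour was a model with an NM code and a gene symbol, and distances ran between spans. Shares have exact Clopper-Pearson 95% intervals. Helpers were tested on simulated models. No test between groups was possible with 1 library per group and no value per library.

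Named loci were those with the longest models or spans, the most models or exons, the widest spread of ends, extreme introns or the shortest models, those in pairs or larger groups, and genes that overlap, face or lie close to a locus. The members and lists were chosen with earlier results of these data known. The choice of promoter windows, and of other examples beyond this rule, followed their values. RefSeq tables of GRCm38.p6 gave names, biotypes and promoter windows, matched by symbol and accession, and no coordinate was converted between builds.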

Additional observations from a re-analysis of the deposited data

How the results depend on the processing

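The numbers of loci with single-exon models alone (48, or 47 without pi-Hist1h1a and 54 by the longest model), with more than 1 start (7, or 7 at 10 nt and 5 at 500 nt), with more than 1 end and in pairs stayed within 1.5 times the reported value under the settings run. The median length of the longest model, 14448 nt, became 8520.5 nt with all models counted and 9846 nt over loci with a multi-exon model. The 47 loci within 500 kb of another became 20 of 87 with head-to-head pairs counted once, and 36 at 100 kb and 48 at 1000 kb. The median distance to the nearest NM-coded model over all PI loci, 21.9 kb with overlaps as 0, became 9.67 kb with every RefSeq model as a neighbour and 83.8 kb on the same strand alone. The 17 loci that overlap an NM-coded gene became 5 when same-strand exon bases were required. The 28 paired loci were the same number under a smaller and a larger limit, and the 58 loci with more than 1 end were 58 at 10 nt and 56 at 500 nt. Neighbours limited to NM-coded RefSeq models, a setting chosen after seeing the data, gave 22.5 kb and 17 loci. The causes were not tested beyond what each setting changes. No paired analysis was possible because each group had 1 library and the table holds no value per library. Depth is unknown, so no level, no difference between ages and no absence of transcription can be read from these models.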

Other observations

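The serial number in the name of a band-named locus, a number not explained by the labels or the table, ran with the length of the locus. It ranged from 2 to 36451, and its Spearman rho with the longest spliced length was 0.55 over 100 loci, 0.73 over the 47 single-exon loci and 0.29 over the 53 loci with a multi-exon model. These points are loci of 1 table and share its naming, so the values describe the table. The median serial number was 11321.5 for the 28 paired loci and 1311 for the unpaired loci, and 8 of the 10 largest belonged to paired loci. The largest were 18-qE1-36451, 2-qE1-35981 and 9-qC-31469. This pattern was noticed in the data.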
